A study of Mus musculus with 13 samples.

Results

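Type I interferon-stimulated genes were followed tumor by tumor in mammary tissue of MMTV-HER2/neu mice. A list of 40 such genes was matched by symbol to the 24421 genes of the count table, and all 40 were present. All 40 also passed the low-count filter, in the fit with the glands and in the fit over tumors alone. The 13 libraries came from FVB/N-TgN females, designated (MMTV-HER2/neu) 202Mul/J and given as genotype "Wild type" in the labels, and every group, glands included, carries the transgene, a rat HER2/neu cDNA that the mouse mammary tumor virus promoter drives in breast epithelium. They were 2 cancer-free mammary glands of untreated mice ("gland"), 3 tumors of untreated mice ("primary untreated"), 3 tumors that arose in mice drinking stavudine ("primary STV"), 3 tumors that regrew after a complete response to 17-DMAG ("recurrent DMAG") and 2 that regrew after 17-DMAG under continuous stavudine ("recurrent DMAG+STV"). Stavudine (STV), a nucleoside inhibitor of reverse transcriptase, was given in water at 1 mg/mL, estimated as 200 mg/kg per day, from 2 months of age or once a primary tumor had appeared. The primary STV tumors arose on STV, and the start for the recurrent DMAG+STV tumors is not given in the sources used here. 17-DMAG, an inhibitor of the chaperone Hsp90, was injected intraperitoneally at 20 mg/kg. The study's methods state that dosing went on while tumors regrew, up to the end point size. Contrasts of recurrent with primary tumors therefore cannot separate recurrence from continued exposure to the drug. The ages at sampling are not given, and the labels describe individual tumors without naming the mouse, so p-values measure the spread between these tumors.

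Type I interferons are secreted proteins that bind the receptor made of Ifnar1 and Ifnar2. The receptor activates the kinases Jak1 and Tyk2, and these activate Stat2, which acts together with Irf9 in the complex ISGF3. ISGF3 binds the interferon-stimulated response element (ISRE) in promoters and switches on genes whose products block steps of viral growth, sense foreign nucleic acid or feed back on the pathway. Cytosolic DNA sensed by cGAS and STING, or RNA sensed by Rig-I and Mda5, is a classical trigger of interferon production, and reverse-transcribed retroelement DNA is among the ligands considered for this pathway in tumors. Irf1 and most of these genes also respond to interferon gamma, so that the list is not specific to type I interferon.

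The ISRE is shown here because it is the sequence through which interferon is known to act on such genes. Promoters, taken from RefSeq on build GRCm38.p6 as the 250 bases before and the first 50 bases after each gene's start, were found for 31 of the 40 members. The letters GAAANNGAAA, on either strand (TTTCNNTTTC on the other), lay in 16 of these 31 promoters (51.6%), as against 3.99% of 27025 genes in the same table. Of the 6 windows below, Isg15 and Oas1a held overlapping copies, and Ifit1 and Ddx60 held a pair of separate copies. Each window is written 5′ to 3′ in the direction of its gene, with the matching letters in capitals.
Isg15, chr4:156200865-156200906, minus strand: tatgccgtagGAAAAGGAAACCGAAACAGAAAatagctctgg
Ifit1, chr19:34640775-34640823, plus strand: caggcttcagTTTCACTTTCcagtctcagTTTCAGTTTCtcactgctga
Ddx60, chr8:61928024-61928086, plus strand: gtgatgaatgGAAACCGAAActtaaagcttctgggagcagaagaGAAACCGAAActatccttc
Oas1a, chr5:120907526-120907555, minus strand: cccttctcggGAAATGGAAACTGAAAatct
Oas3, chr5:120777715-120777744, minus strand: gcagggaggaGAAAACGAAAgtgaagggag
Rsad2, chr12:26456553-26456582, minus strand: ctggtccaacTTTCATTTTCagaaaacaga

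Library totals ran from 39921388 to 56887708 counts, a 1.42-fold range. Values are CPM, the counts per 1000000 counts of the library size after TMM scaling, and 3 counts corresponded to 0.0587 to 0.107 CPM. The lowest count of any member in any library was 16 and the highest 8891. Gland 2 stood apart: 8 milk protein genes summed to 764799 CPM there and to 28062 CPM in gland 1, its scaling factor was 0.493 against 0.999 to 1.125 elsewhere, and 10 skeletal muscle genes summed to 2201 CPM against 16.7 in gland 1. Gland 1 held the immune cells, with 8 T cell markers at 144 CPM against 8.81 in gland 2 and 6 B cell markers at 172 against 3.53. In tumors these sums were 4.97 to 11.7 and 1.24 to 3.22 CPM. Recurrent DMAG 1 was highest of the tumors in macrophage, B cell and endothelial markers, and skeletal muscle markers reached 2100 CPM in recurrent DMAG+STV 2 and 1281 in primary untreated 1. Since these are bulk samples, fewer cells of a type and less RNA per cell cannot be told apart.

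The members rose and fell together from tumor to tumor, and this variation was wider inside the treatment groups than between them. The mean log2 CPM over the 40 members was lowest in primary untreated 2 (3.44) and highest in recurrent DMAG+STV 1 (5.41), a 3.90-fold range. It was 4.74 and 5.05 in the other primary untreated tumors, 4.62, 4.20 and 5.26 in primary STV, 4.65, 4.86 and 5.33 in recurrent DMAG, and 3.92 in the second recurrent DMAG+STV tumor. Group means were 4.41 ± 0.86 in primary untreated (SD, n = 3), 4.69 ± 0.54 in primary STV (SD, n = 3), 4.95 ± 0.35 in recurrent DMAG (SD, n = 3) and 4.66 in recurrent DMAG+STV (n = 2). The spread within groups, 0.71 when pooled over the tumor groups and the glands, exceeded every difference between these means. Glands 1 and 2 stood at 5.14 and 6.23.

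**Figure D1:**
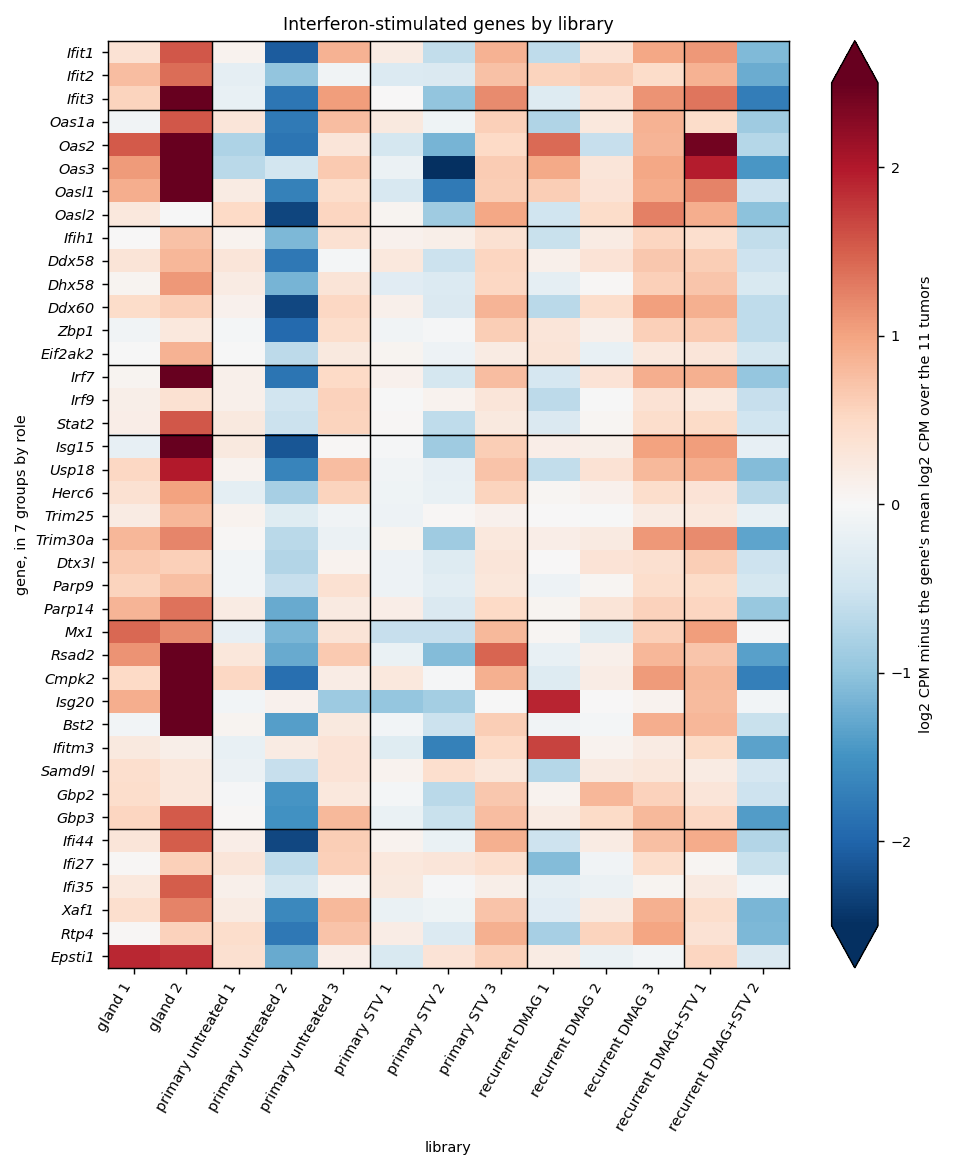
Log2 CPM of the 40 members in the 13 libraries, each minus the gene's mean log2 CPM over the 11 tumors; red is above and blue below that mean, and the scale ends at 2.5 in either direction. Columns are libraries by group and rows are genes by role; the columns of primary untreated 2 and recurrent DMAG+STV 2 are blue for most genes, while recurrent DMAG 3 and recurrent DMAG+STV 1 are red.

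Primary untreated 2 was the lowest of the 11 tumors for 29 of the 40 members, and was the lowest tumor for 13.9% of all 16870 genes tested in tumors. It was among the lowest 2 tumors for 35 members (87.5%; 23.6% of all genes). Recurrent DMAG+STV 2, a tumor that had been through both treatments, was among the lowest 2 for 27 members (67.5%; 25% of all genes). These tumors were together the lowest pair for 23 members (57.5%), and for 4.16% of all genes. At the other end, recurrent DMAG+STV 1 was among the highest 2 for 27 members (67.5%; 15.0% of all genes) and recurrent DMAG 3 for 25 (62.5%; 9.56% of all genes). The lowest pair thus joined an untreated tumor with a doubly treated one, and the highest pair joined recurrences with and without STV. These shares are descriptions, since the members share the same libraries. Primary untreated 2 had 49134339 counts and recurrent DMAG+STV 2 had 46108755, within the 39921388 to 49484412 counts of the 11 tumors.

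**Figure D2:**
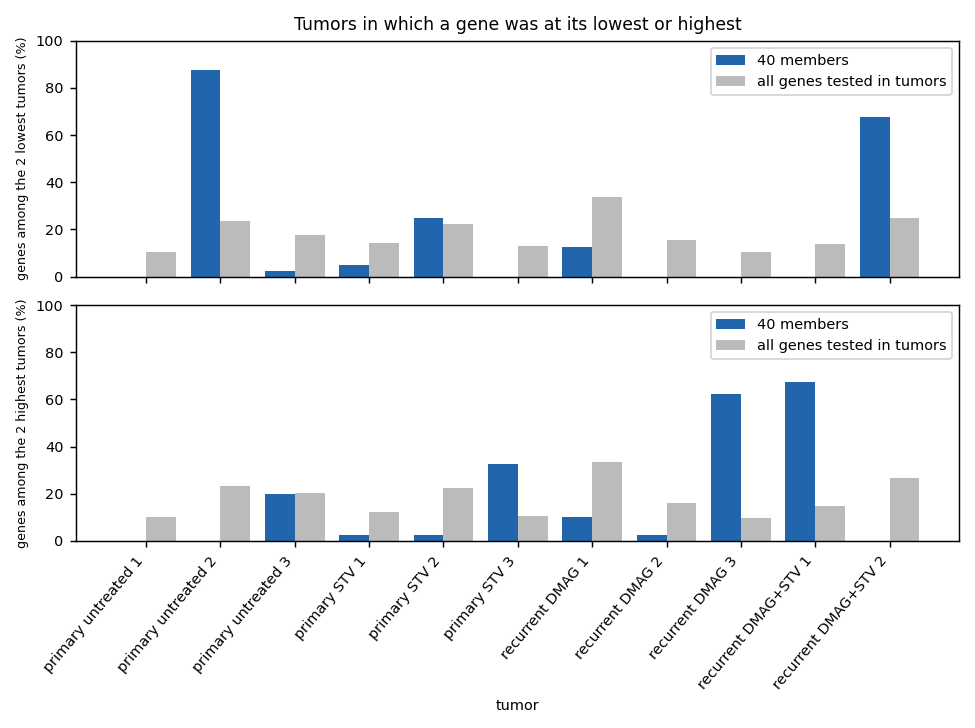
Share of genes, in percent, for which each of the 11 tumors was among the 2 lowest (upper panel) or the 2 highest (lower panel). Blue bars are the 40 members and grey bars the 16870 genes tested in tumors; the blue bar of primary untreated 2 reaches 87.5% in the upper panel, and those of recurrent DMAG 3 and recurrent DMAG+STV 1 reach 62.5% and 67.5% in the lower panel.

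The median SD of log2 CPM over the 11 tumors was 0.75 for the members, between 0.16 and 1.26. It was 0.37 over all genes tested and 0.28 over the 10815 genes whose mean level lay in the range of the members. Most of this spread was present within groups, where the median SD was 0.77 for members and 0.34 for all genes. Without primary untreated 2 the median SD of the members was 0.57, and without both low tumors it was 0.48, against 0.35 and 0.33 for all genes. Oas3, Oas2 and Ifit3 had the largest SD, and Trim25, Ifi35 and Eif2ak2 the smallest.

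Per kilobase of exon, the median level over tumors was highest for Ifi27 (83.6 CPM per kb), a small membrane protein, and for Ifitm3 (76.8 CPM per kb), a membrane protein that blocks virus entry. Rtp4, a chaperone of receptors, followed at 21.6 and the ubiquitin ligase Trim25 at 20.3 CPM per kb. The lowest were Oas3 at 0.408, Isg20 at 1.46 and Oasl1 at 1.47 CPM per kb. The most variable genes of the list thus included its scarcest transcript, while Ifi27, the most abundant, had a highest-to-lowest ratio of 3.22.

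The IFIT family, whose proteins bind foreign RNA and block its translation, spanned 4.32- to 9.02-fold over tumors. Ifit1 (GRCm38, chromosome 19, 34640871 to 34650009, plus strand, protein coding) was at 24.5, 5.46 and 42.0 CPM in primary untreated, 26.8, 15.0 and 42.0 in primary STV, 14.9, 29.7 and 45.2 in recurrent DMAG, and 49.3 and 10.7 in recurrent DMAG+STV. The 2 glands were at 29.6 and 68.0 CPM. All 4 tumor groups overlapped, and the low tumor of one group stood beside tumors near the top in the same group. Ifit3 had the same order at its ends, with 2.49 CPM in primary untreated 2 and 2.65 in recurrent DMAG+STV 2 against 22.1 in recurrent DMAG+STV 1 and 60.6 in gland 2. Ifit3 shares 51.2% of its 50-base words with its copy Ifit3b, so that reads of the pair may have been split or lost, and Ifit3b itself ran from 1.39 CPM in primary untreated 2 to 17.4 in recurrent DMAG+STV 1.

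The OAS family makes or resembles the enzymes that synthesise 2′-5′ oligoadenylate, the activator of RNase L, and had the widest range, 6.14- to 26.2-fold over tumors. Oasl2 was at 56.7, 8.21 and 58.0 CPM in primary untreated, 42.2, 21.8 and 78.9 in primary STV, 28.6, 55.6 and 95.9 in recurrent DMAG, and 75.5 and 19.7 in recurrent DMAG+STV. It was at 48.1 and 40.2 in the glands, inside the range of the tumors. Oas2 differed in its top: it was 51.9 CPM in recurrent DMAG+STV 1 and 26.1 in recurrent DMAG 1, and 2.77 to 17.5 in the other 9 tumors. Oas3 reached 9.13 CPM in recurrent DMAG+STV 1 and was lowest, at 0.348, in primary STV 2. Oas1a shares 57.6% of its 50-base words with other genes, foremost Oas1g and Oas1b. Oas1a and Oas1g were both lowest in primary untreated 2 (6.87 and 2.65 CPM) and highest in recurrent DMAG 3 (42.2 and 21.5 CPM). Oas1b was lowest in recurrent DMAG+STV 2 (4.14 CPM) and highest in primary STV 3 (16.2 CPM).

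All 6 sensors of RNA and DNA were lowest in primary untreated 2. Ddx58, which encodes Rig-I, was at 101, 23.6 and 79.3 CPM in primary untreated, 98.5, 56.6 and 118 in primary STV, 89.3, 103 and 131 in recurrent DMAG, and 125 and 56.9 in recurrent DMAG+STV, with 102 and 146 in the glands. Without its lowest tumor the gene spanned 56.6 to 131 CPM and no group lay apart. Ddx60, a helicase that acts with Rig-I, had the widest range of the sensors, from 9.29 to 91.0 CPM, and Eif2ak2, the kinase PKR that halts translation on double-stranded RNA, the narrowest, from 59.9 to 118 CPM.

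Among the transcription factors, Irf7, the factor that amplifies interferon production, was at 47.8, 12.4 and 61.5 CPM in primary untreated, 47.2, 32.4 and 74.8 in primary STV, 32.7, 55.3 and 82.6 in recurrent DMAG, and 81.2 and 22.5 in recurrent DMAG+STV. It was 46.2 in gland 1, within the tumors, and 248 in gland 2, above all of them. The ISGF3 subunits moved less. Stat2 ran from 33.0 CPM in primary STV 2 to 76.2 in primary untreated 3, and Irf9 from 43.2 in recurrent DMAG 1 to 102 in primary untreated 3. Irf9 overlaps Rnf31 on the same strand and Irf7 overlaps Phrf1 on the opposite strand, and the strand setting of the counting is not given in the sources used here.

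Isg15, a ubiquitin-like protein that is conjugated to other proteins, was at 7.41, 1.41 and 6.36 CPM in primary untreated, 6.15, 3.39 and 9.60 in primary STV, 7.02, 6.90 and 12.5 in recurrent DMAG, and 12.9 and 5.38 in recurrent DMAG+STV. The glands were at 5.41 and 39.0, gland 1 being inside the tumors and gland 2 outside. Usp18, the protease that removes Isg15 and restrains the receptor, ran from 4.48 CPM in primary untreated 2 and 6.59 in recurrent DMAG+STV 2 to 26.3 in recurrent DMAG+STV 1. Trim25, which ubiquitinates Rig-I, was the steadiest member, from 94.8 to 140 CPM over tumors, a ratio of 1.48. Even so its lowest and highest tumors were primary untreated 2 and recurrent DMAG+STV 1.

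**Figure D3:**
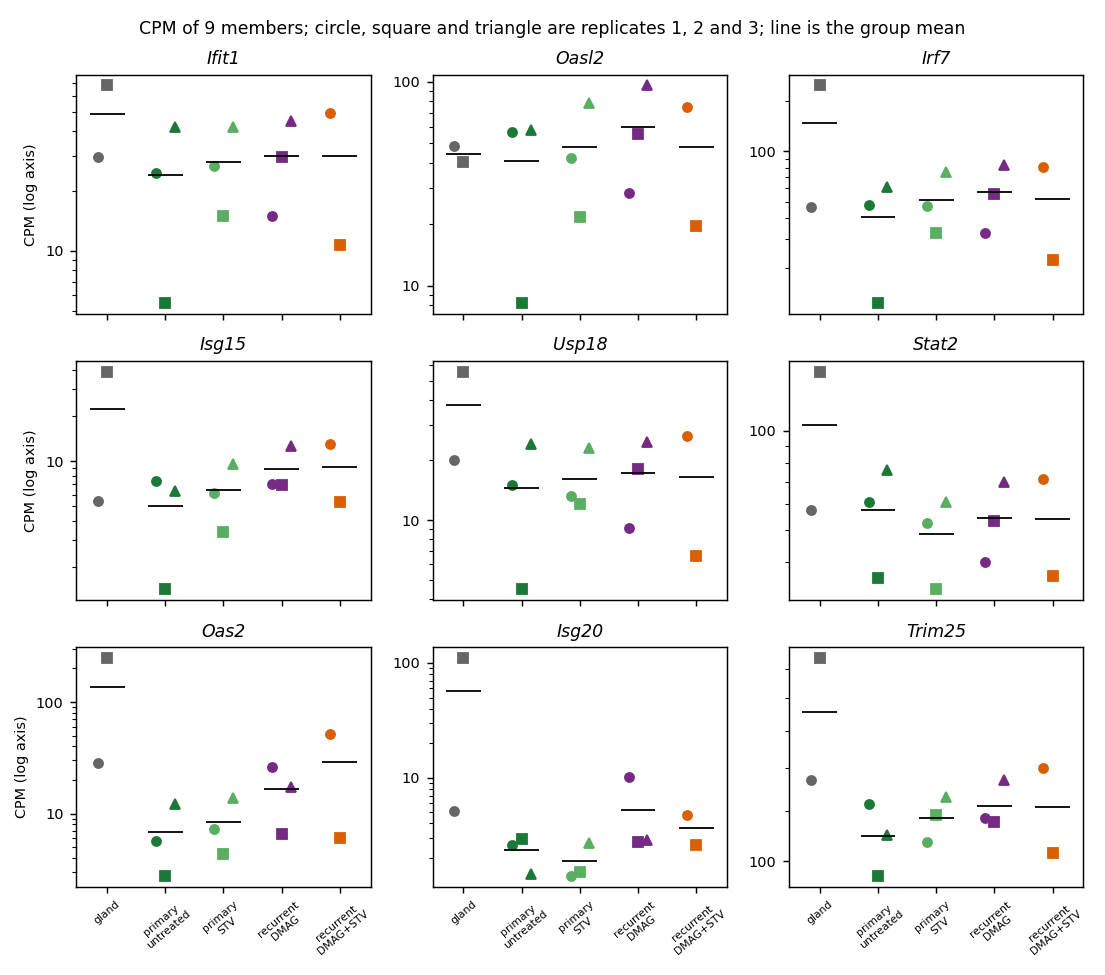
CPM of 9 members in each library on log axes, by group; circle, square and triangle are replicates 1, 2 and 3, and the line is the group mean. In Ifit1, Oasl2, Irf7, Isg15 and Usp18 the square of primary untreated lies lowest of all tumors; Isg20 and Oas2 have their highest value in gland 2, and Trim25 spans a short range.

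Among the effectors, Rsad2 (viperin), which makes a chain-terminating nucleotide, was at 18.2, 6.26 and 23.8 CPM in primary untreated, 13.4, 7.07 and 41.3 in primary STV, 13.2, 16.5 and 26.9 in recurrent DMAG, and 24.5 and 5.91 in recurrent DMAG+STV. Its highest tumor was primary STV 3 and its glands were at 32.7 and 126. Mx1, a GTPase that traps viral components, ran from 3.32 to 15.3 CPM in tumors, below the 19.8 and 16.7 CPM of the glands. Bst2 (tetherin), which holds budding virions at the membrane, ran from 7.13 CPM in primary untreated 2 to 34.8 in recurrent DMAG 3, with 17.8 and 126 in the glands.

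A few members left the common order. Ifitm3 was 147 CPM in recurrent DMAG 1 and 14.1 to 64.5 in the other 10 tumors, and in primary untreated 2 it was 52.5, a middle value. Isg20, an exonuclease, was also highest among tumors in recurrent DMAG 1, at 10.2 CPM against 1.40 to 4.71. Ifi27, Irf9 and Samd9l were by contrast lowest in recurrent DMAG 1, at 48.0, 43.2 and 45.3 CPM. Extreme values were common in recurrent DMAG 1: it was the lowest tumor for 24.7% of all genes and the highest for 24.6%. Of the members, 3 were lowest and 3 highest there. That tumor had the highest macrophage sum, 628 CPM against 170 to 428, and the highest endothelial sum, 263 against 64.3 to 140. Whether those cells contributed to its Ifitm3 and Isg20 values was not tested.

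Against the glands, members lay mostly lower in tumors, but the size of the difference depended on gland 2. In the contrast of the mean of the 4 tumor groups with the glands, 4 of 40 members were called lower by the edgeR quasi-likelihood test at a Benjamini-Hochberg adjusted p of 0.05, and none was called higher. Of the 17135 genes tested, 8.81% were called lower, 1.6% higher and 10.4% in either direction. An unadjusted p under 0.05 was found for 18 members (45.0%) and 29.6% of all genes. The fitted change was above 0 for 2 members and for 48.4% of all genes. The members' median log2 fold change was -0.81 and that of all genes -0.022. The called genes were Isg20 (log2 fold change -4.24, SE 0.66, edgeR adjusted p = 0.00474), Epsti1 (-1.77, SE 0.34, edgeR adjusted p = 0.0106), Oas2 (-3.41, SE 0.73, edgeR adjusted p = 0.0172) and Ifi35 (-1.0, SE 0.25, edgeR adjusted p = 0.0304). DESeq2 called 9 members and limma voom 1, Epsti1. Over all genes too, DESeq2 called more than edgeR did, with the counts given in the last section.

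The library values show what these calls rest on. Isg20 was 5.15 CPM in gland 1 and 110 in gland 2, so that gland 1 lay among the tumors. Oas2 was 28.2 and 247 CPM, and Ifi35 25.4 and 60.5 against 15.7 to 25.3 in tumors. Epsti1, a gene named for epithelial-stromal interaction, was the exception, at 34.6 and 33.2 CPM in the glands and 3.93 to 14.2 in the 11 tumors, with no overlap. Without gland 2 no member was called, the members' median log2 fold change was -0.16, and Epsti1 kept its size (-1.71) with an edgeR adjusted p of 0.0915. The number of called members rose without gland 1 and without recurrent DMAG+STV 1, fits that each kept 1 library in a group. The calls over all genes moved with the library left out as well, so this rise is not read as a result about the members. In 5 members every tumor lay below both glands (Parp9, Parp14, Mx1, Ifi35 and Epsti1), and 7.37% of all genes did so; no member lay above both glands in every tumor (4.14% of all genes). The 2 glands differed in milk, muscle and immune cell content as given above, and the part of those differences in the members' values was not tested.

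For the primary untreated tumors alone, all 40 members had a fitted change below 0 against the glands (median -0.94), while 48.8% of all genes had one above 0. Isg20 was the only member called by edgeR (log2 fold change -4.62, SE 1.03, adjusted p = 0.0491), 2.5% of the list, against 1.83% of all genes called lower and 2.11% called in either direction. An unadjusted p under 0.05 was found for 16 members and 24.5% of all genes. The 3 tumors lay below both glands for 16 members, among them Ifit2, Oas2, Oas3, Rsad2 and Gbp2, and for 20.4% of all genes. Without gland 2 no member was called, and the median was -0.35. The calls of this contrast and the size of its median thus moved with gland 2.

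Primary tumors of mice drinking STV were compared with those of untreated mice. Reverse transcription itself was not measured in these libraries. No member was called by edgeR, DESeq2 or limma voom, and none had an unadjusted p under 0.05. edgeR called 0.0% of all genes, and 3.76% had an unadjusted p under 0.05. Fitted changes ran from -0.40 to 0.49, with 34 of 40 above 0 (44.9% of all genes) and a median of 0.20. The smallest p-values were those of Samd9l (log2 fold change 0.32, SE 0.30) and Ifit2 (0.47, SE 0.49), each with an edgeR adjusted p of 1.00; Samd9l was at 0.15 without primary untreated 2, and Ifit2 at 0.03 without primary STV 3. In no member did the 3 STV tumors lie apart from the 3 untreated tumors in either direction, and 5.00% of all genes lay apart upwards and 5.83% downwards. With a median SE of 0.54, a change of 2-fold in a typical member lay inside 2 standard errors, so smaller changes were not detectable with these tumors. Without primary untreated 2 the median was -0.07.

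Recurrent tumors, which regrew while 17-DMAG was continued, were compared with primary tumors first in mice without STV. No member was called by any of the 3 tools and none had an unadjusted p under 0.05 in edgeR, where 0.0% of all genes were called and 9.69% had an unadjusted p under 0.05. Of the members, 36 had a fitted change above 0 (49.4% of all genes) and the median was 0.38. All members of the IFIT, OAS, sensor and Isg15 groups and all 9 other effectors were among them, with no one of them past the test. Isg20 came nearest (log2 fold change 1.16, SE 0.57, edgeR adjusted p = 0.513), then Ifit2 (0.91, SE 0.50, edgeR adjusted p = 0.529). The Isg20 value rested on recurrent DMAG 1, without which it was 0.28. Ifit2 was at 18.9, 19.7 and 17.8 CPM in recurrent DMAG and at 11, 6.50 and 12.1 in primary untreated, so these groups did not overlap. Trim30a was the only other such member (23.6 to 44.9 against 13.2 to 21.6 CPM), and the pair made up 5.0% of the list, with 7.65% of all genes apart in this direction; no member lay apart downwards (7.45% of all genes). Without primary untreated 2 the members' median was 0.05.

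Under STV the members split nearly evenly between recurrent and primary tumors. The median log2 fold change was 0.01, with a median SE of 0.60, and 22 members were above 0 (51.8% of all genes). With a library left out the median change ran from -0.84, without recurrent DMAG+STV 1, to 0.52. No member was called by edgeR, DESeq2 or limma voom, and none had an unadjusted p under 0.05. edgeR called 0.0% of all genes, and 10.1% had an unadjusted p under 0.05. Oas2 had the smallest p (log2 fold change 1.78, SE 0.91, edgeR adjusted p = 0.524), followed by Isg20 (0.96, SE 0.62, edgeR adjusted p = 0.590). The Oas2 value came from recurrent DMAG+STV 1, since 51.9 and 5.99 CPM in that group stood against 7.23, 4.35 and 13.8 in primary STV, and without that tumor the change was -0.50, and that of Isg20 0.46. Ifi27 was the only member with no overlap, lower in the recurrent tumors (105 and 69.1 CPM against 123, 126 and 137); 17.9% of all genes lay apart downwards, and no member lay apart upwards (17.4% of all genes).

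Between the recurrent groups, STV against none gave a median of -0.10, with 11 members above 0 (49.4% of all genes), no called member in any of the 3 tools, none at an unadjusted p under 0.05, and 0.0% of all genes called by edgeR. Of all genes, 7.84% had an unadjusted p under 0.05. In no member did these groups lie apart, and 10.9% of all genes lay apart upwards and 10.5% downwards. Ifitm3 (log2 fold change -1.01, SE 0.73, edgeR adjusted p = 0.819) and Gbp2 (-0.57, SE 0.53, edgeR adjusted p = 0.874) had the smallest p-values. With a library left out, Ifitm3 ran from -2.21 (without recurrent DMAG+STV 1) to -0.30 (without recurrent DMAG 1), and Gbp2 from -1.05 to -0.22 (without recurrent DMAG+STV 1 and 2 in turn). The recurrent DMAG+STV pair stood at opposite ends of the list, and without recurrent DMAG+STV 1 the median was -1.04.

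Averaged over water with and without STV, recurrence gave a median of 0.18 and 30 members above 0 (50.3% of all genes). With a library left out this median ran from -0.24, without recurrent DMAG+STV 1, to 0.48, without recurrent DMAG+STV 2. No member was called by edgeR, DESeq2 or limma voom, and 0.0% of all genes were called by edgeR. Isg20 (log2 fold change 1.06, SE 0.42, edgeR adjusted p = 0.336) and Oas2 (1.53, SE 0.62, edgeR adjusted p = 0.340) had unadjusted p-values under 0.05, 5.0% of the list against 13.6% of all genes. The Isg20 change was 0.62 without recurrent DMAG 1, and the Oas2 change 0.40 without recurrent DMAG+STV 1. In no member did the 5 recurrent tumors lie apart from the 6 primary tumors (0.652% of all genes upwards, 0.688% downwards). The interaction, which tests whether the change with recurrence differs between the arms, had 6 members above 0 (52.5% of all genes) and a median of -0.29. It called none by any of the 3 tools, none had an unadjusted p under 0.05 (7.84% of all genes), and edgeR called 0.0% of all genes. Gbp2 (-0.89, SE 0.70, edgeR adjusted p = 0.787) and Ifit2 (-0.84, SE 0.74, edgeR adjusted p = 0.811) came nearest, at -1.39 and -2.29 without recurrent DMAG+STV 1. The contrasts of tumors share libraries, so their medians are not independent of each other.

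**Figure D4:**
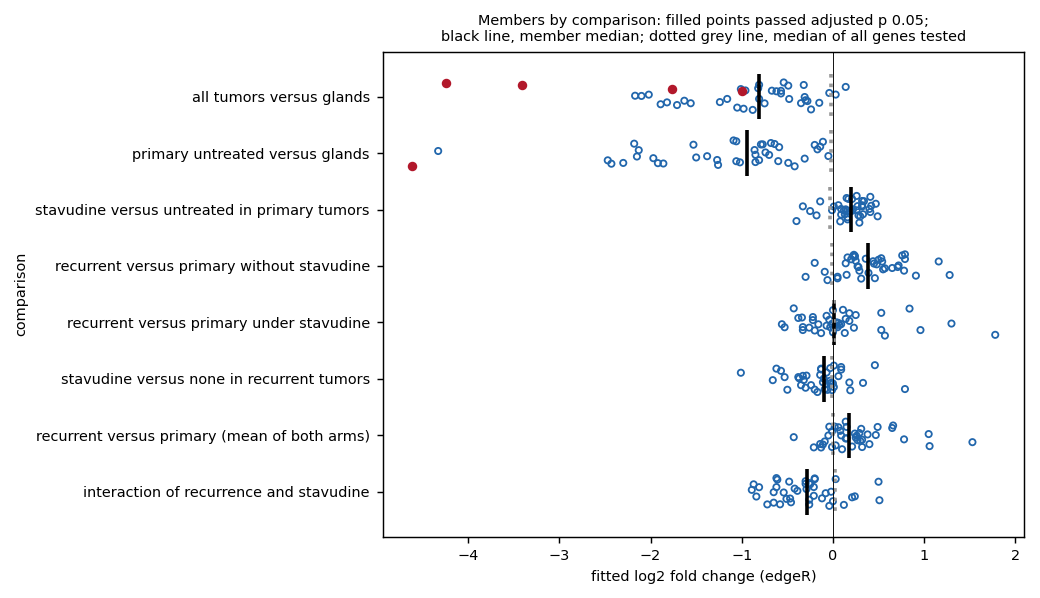
Fitted log2 fold changes of the 40 members in 8 comparisons; each circle is a gene, filled where its edgeR adjusted p was under 0.05, with the member median as a black line and the median of all genes tested as a dotted grey line. Filled circles occur only in the comparisons with glands, 4 for all tumors and 1 for primary untreated, and the member medians of the tumor comparisons lie between -0.29 and 0.38.

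The ligands themselves were near the floor of detection. Of 21 interferon genes in the table, 15 had at most 3 counts in every tumor and 5 had 0 counts in every library. Ifnb1, interferon beta, had 2 counts over all 13 libraries. Of the 14 alpha genes (Ifnab included), 2 passed 3 counts in a library, with at most 8 counts. Ifng, interferon gamma, had 16 counts in all and at most 6 in a library. A count of 0 allows up to 3 counts, so ligand transcripts below 0.0587 to 0.107 CPM were not detectable at this depth. Ifnz reached 12 counts, and Ifne, the epithelial interferon epsilon, had 32 counts (1.14 CPM) in gland 2 and at most 4 in a tumor. Ifnk, the epidermal type I interferon, was the ligand with the most counts in tumors and ran from 19 to 150 counts over the libraries. It was at 0.693 CPM in recurrent DMAG+STV 2 and 3.40 in recurrent DMAG 1, and at 1.37 in primary untreated 2, amid the other tumors.

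Some genes upstream of the members varied less over tumors than most members did. Ifnar1 ran from 68.4 to 91.3 CPM over tumors, its highest value being in primary untreated 2, and Ifnar2 from 35.7 to 57.9. Mavs, the adaptor of Rig-I, was 62.0 CPM in primary untreated 2 and 34.0 to 60.3 in the other tumors. The kinase Tyk2 ran from 45.6 to 62.5, the factor Irf3 from 46.6 to 66.0, and the DNA sensor cGAS (listed as Mb21d1) from 4.75 to 8.60 CPM. The adaptor STING (listed as Tmem173) varied more, from 13.4 to 39.1 CPM, and was 29.6 CPM in primary untreated 2, above 8 of the other 10 tumors.

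Some other genes that interferons induce were low in the same tumors as the members. Nlrc5, the transactivator of MHC class I genes, was at 66.6, 11.5 and 76.3 CPM in primary untreated, 67.8, 32.2 and 75.2 in primary STV, 52.2, 78.4 and 110 in recurrent DMAG, and 75.6 and 10.7 in recurrent DMAG+STV. Its 3 lowest tumors were thus recurrent DMAG+STV 2, primary untreated 2 and primary STV 2, and its highest was recurrent DMAG 3. Irf1 was lowest in primary untreated 2 (20.5 CPM) and ran from 41.9 to 72.1 in the other tumors. The kinase Jak1, which acts upstream of the members, was low in these tumors too. It was 224 CPM in primary untreated 2 and 157 in recurrent DMAG+STV 2 against 273 to 445 in the other tumors. Of the 19 close relatives of members (such as Ifit3b, Mx2 and Gbp9), 8 were lowest in primary untreated 2 and 12 had recurrent DMAG+STV 2 among their lowest 2.

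**Figure D5:**
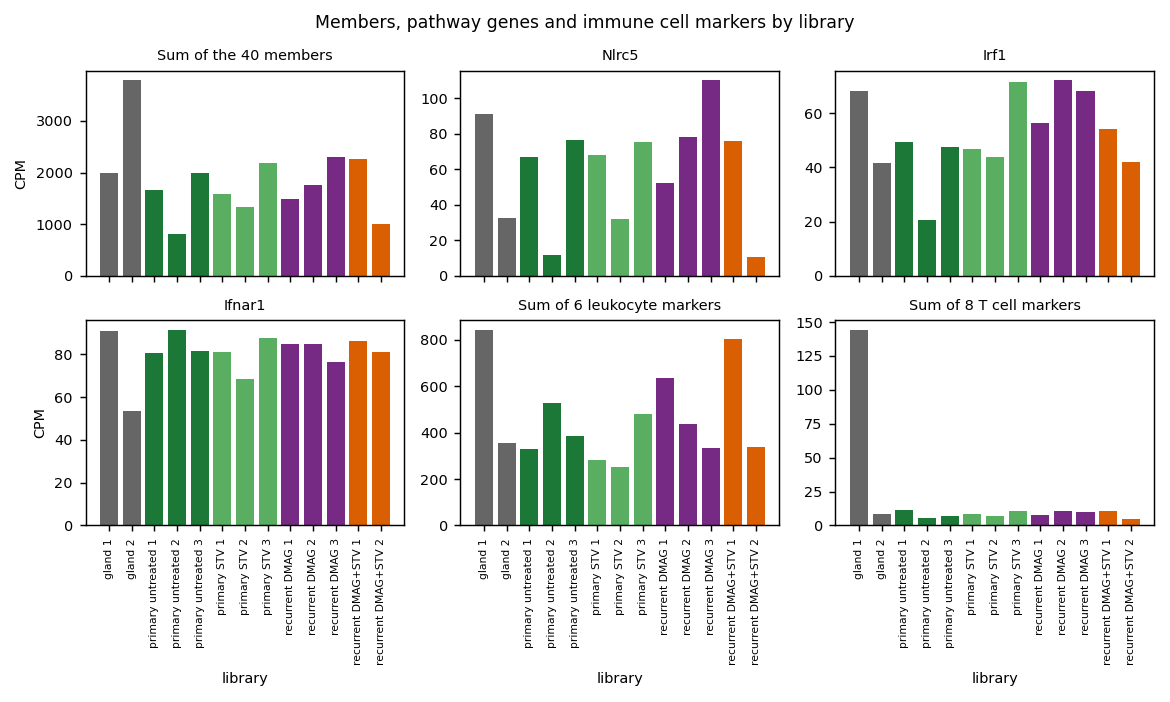
CPM by library of the summed 40 members, of Nlrc5, its fellow interferon-induced gene Irf1 and the receptor gene Ifnar1, and of summed leukocyte and T cell markers; bars start at 0 and are coloured by group. The member sum and Nlrc5 dip in primary untreated 2 and recurrent DMAG+STV 2, Irf1 is lowest in primary untreated 2, Ifnar1 dips in neither, and T cell markers are high in gland 1 alone. Lcp1 makes up 470 of the 526 CPM of the leukocyte sum in primary untreated 2.

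No gene of the ligand, receptor, sensing, regulator and close relative lists was called in a contrast between tumors, where edgeR called 0.0% of all genes. Only 2 of the 21 ligand genes and 18 of the 19 close relatives passed the filter there, and the rest could not be called. Against the glands, the mean of the tumor groups was lower by edgeR for 1 of 10 receptor and JAK-STAT genes, 4 of 12 upstream sensing genes and 4 of 19 close relatives, and higher for none, while 8.81% of all genes were called lower. These were Ifngr1 (log2 fold change -1.84, SE 0.24, edgeR adjusted p = 0.00228), the interferon gamma receptor, with Ikbke, Tlr9, Irf5 and Irf8 (-1.20 to -1.73), and Ifit1bl1, Gbp2b, Gbp4 and Gbp5 (-1.57 to -3.17). Tlr9, Irf5 and Irf8 are typical of leukocytes and were higher in gland 1 than in gland 2 (Irf8 42.7 and 10.7 CPM), where the T and B cell markers also were.

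Markers of immune cells differed in how they ran over the tumors. The 6 pan-leukocyte markers, all detected in tumors, summed to 526 CPM in primary untreated 2 and 340 in recurrent DMAG+STV 2, inside the 253 to 804 CPM of the 11 tumors, but Lcp1 alone made up 470 CPM of the first sum. Without Lcp1 the other 5 summed to 56.5 CPM in primary untreated 2, the second lowest of the tumors, and 85.5 in recurrent DMAG+STV 2, the third highest, within 54.5 to 179 CPM; this sum was chosen after seeing the data. The 8 macrophage markers summed to 213 and 289 CPM in that pair, against 170 to 628 over all tumors. The 6 plasmacytoid dendritic cell markers, of the cell type that secretes the most interferon, summed to 26.3 and 32.0 against 22.3 to 44.8. Runx2 made up 12.1 and 20.3 CPM of these sums. Siglech was 0.795 and 0.652 CPM in the pair, at the low end of 0.652 to 5.59 over tumors. Ccr9 was 5.10 and 2.81 CPM, within 1.48 to 6.94. The summed T cell markers were low in the same tumors as the members: their sums were 5.16 and 4.97 CPM in the low pair, the lowest of the tumors, and 7.00 to 11.7 in the others. Single markers differed, since 3 of the 8 were lowest in primary untreated 2 (Lck level with recurrent DMAG+STV 2), where Cd5 was the highest of the tumors (2.16 CPM), and Cd4 was highest in recurrent DMAG+STV 2 (1.96 CPM). By group the T cell sums were 5.16 to 11.7 CPM in primary untreated, 7.36 to 11 in primary STV, 7.55 to 10.9 in recurrent DMAG and 4.97 to 11 in recurrent DMAG+STV, and none of the 8 markers was at or under 3 counts in every tumor. Recurrent DMAG+STV 2 also had the lowest luminal epithelial sum, 1352 CPM against 2202 to 2771, and the most muscle, whereas primary untreated 2 had 2761 and 11.2 CPM for these. The part of T cells, epithelium or muscle in the low member values was not tested.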

How the data were processed

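Total RNA depleted of ribosomal RNA was sequenced from 13 libraries. The deposited values were whole-number counts per gene, not normalized; according to the study's methods the authors aligned reads to mm10/GRCm38 with STAR and counted with featureCounts (Subread 1.6.2 and bcl2fastq 2.20 in the submitters' processing notes). Reads shared between close copies may be dropped or misassigned in such counts. Samples were grouped by title. Counts were tested in R 4.3.3 with edgeR 4.0.16 (filterByExpr, TMM, robust quasi-likelihood F test, Benjamini-Hochberg over all genes, adjusted p under 0.05). The 2 gland contrasts used 13 libraries (17135 genes, biological coefficient of variation 0.431) and the 6 others used the 11 tumors (16870 genes, 0.402). The SE is the size of the log2 fold change divided by the square root of F. Log2 CPM used a prior count of 2. CPM per kb used GENCODE M21 exon lengths on GRCm38, matched for 23376 symbols. Sequence shared between a member and other genes was measured as shared 50-base words of transcripts. The close relatives of members were a chosen list and were not found by these words.

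Alternatives were DESeq2 1.42.0, limma 3.58.1 voom, RLE factors, no filter, a replicate block, removal of milk, muscle and adipocyte genes, the compared groups only, a prior count of 0.5, and each library left out. Scripts were tested on simulated data. Members and lists were chosen with earlier results of these data known. Per-library values were given for fixed examples of each role, the members called or with the 2 smallest p-values in each contrast, and those of largest and smallest SD. Counting error is small at this depth for most members, but not for ligands and cell markers with a few counts. Intervals cover the spread between libraries. A gene of the pathway lists is not reported here.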

Additional observations from a re-analysis of the deposited data

How the results depend on the processing

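In the 6 contrasts between tumors no member was called under any alternative run, so no call there depended on the processing. The calls against glands did. For all tumors, 4 members were called, 9 with DESeq2, 1 with limma voom, 2 with the replicate block (Epsti1 and Mx1), and 0 (without gland 2) to 12 (without gland 1) with a library left out. For primary untreated tumors the count of 1 became 10 with DESeq2, 0 with no filter, 0 with the replicate block, 0 without milk, muscle and adipocyte genes, 0 with the compared groups only, and 0 to 8 with a library left out (8 without gland 1, 3 without recurrent DMAG 1). Over all genes, DESeq2 called 3242 in place of 1785 for all tumors and the block 371, and for primary untreated tumors, with 361 called, the counts were 2352 and 4, and 0 in the compared groups only. Leaving out libraries gave 535 to 4255 and 0 to 3381. In both gland contrasts the calls over all genes thus moved with the library left out, as those of the members did. Fits without a gland also kept only 1 library in that group. Changes in the count of called members with a library left out are therefore not read as results about the members. Between tumors edgeR called 0 genes in each contrast, while DESeq2 called 17 to 419. Member medians with a library left out ran from -0.09 to 0.57 for STV in primary tumors, 0.05 to 0.77 for recurrence without STV, -0.24 to 0.48 for the average of recurrence, -0.84 to 0.52 for recurrence under STV, -1.04 to 0.33 for STV in recurrent tumors and -1.37 to 0.12 for the interaction, the last 4 being lowest without recurrent DMAG+STV 1. The Oas2 change with recurrence under STV ran from -0.50, reversed without that tumor, to 2.62 without the other. With recurrent DMAG+STV reduced to 1 tumor, that tumor is assumed to vary like the others. The cause of these shifts was not tested. Ranks of tumors under RLE factors were tried after seeing the data and changed no count of members lowest in a tumor.

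Replicate numbers are shared across groups in the labels, but same-numbered libraries did not deviate together (r -0.289 to 0.217, median -0.035, 23 pairs, against a median of 0.027 in 44 other pairs), so the block results above rest on a shared number only.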
